A study of Mus musculus with 6 samples.

Results

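The Argonaute and microRNA machinery was read here as 10 genes: the Argonautes Ago1, Ago2, Ago3 and Ago4, the processing genes Drosha, Dgcr8, Dicer1 and Tarbp2, the export gene Xpo5 and the effector gene Tnrc6a. Every probe set that the platform annotation assigns to exactly 1 of these symbols was taken, which gave 34 of 45037 probe sets for 10 of 18193 annotated genes: 1 for Ago1, 4 for Ago2, 5 for Ago3, 2 for Ago4, 3 for Drosha, 4 for Dgcr8, 2 each for Dicer1, Tarbp2 and Xpo5, and 9 for Tnrc6a. By the labels, the arrays measured RNA of sorted elongating spermatids from wild-type ICR mice, an outbred strain. Elongating spermatids are the germ cells in which the nucleus condenses after meiosis. Markers of other cell types were also read on the arrays, as given below. Testes were transduced when the mice were 5 weeks old, and GFP-positive cells were sorted 1 week later. One group had received a lentiviral vector with a hairpin named for Miwi and GFP (shMiwi), another a vector with a hairpin named for Caf1 and GFP (shCaf1), and the control group the pSilencer vector with GFP. There were 2 arrays per group, which the labels call biological replicates, and so few arrays limit the precision of what follows. No source used here says how many testes were pooled for an array, and sorting on GFP selects transduced cells of any type that passed the gate.

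Animal microRNAs are cut from their primary transcripts in the nucleus by the nuclease Drosha with its RNA-binding partner Dgcr8, carried to the cytoplasm as hairpins by Exportin-5 (Xpo5), and trimmed to short duplexes by Dicer1 with Tarbp2. An Argonaute protein keeps 1 strand of the duplex as a guide, and Tnrc6a (GW182) links Argonaute to the deadenylases that shorten target mRNAs. Short hairpin RNAs made from a vector use the same exporter, Dicer and Argonautes, and Ago2 is the mammalian Argonaute known for cutting well-matched targets. In the male germ line the PIWI proteins, a sister branch of the Argonaute family, carry piRNAs, which are made without Dicer.

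Before any gene was compared, the control arrays differed from all others and between themselves. Over the tested probe sets, the log2 signals of the shRNA arrays correlated with each other at 0.97 to 0.98 (Pearson). Control 1 correlated with them at 0.037 to 0.071, control 2 at 0.40 to 0.46, and the controls with each other at 0.45. The 100 brightest probe sets held 52.6% and 29.5% of the signal on the control arrays, against 5.85% to 7.25% on the shRNA arrays. The deposited signal is a MAS5 summary on a linear scale with the same trimmed mean on every array. Hybridization controls, labelled RNAs added in fixed amounts, were 0.941 and 0.806 of the shRNA average on the shMiwi arrays and 1.10 and 1.20 of it on the shCaf1 arrays, against 82.3 and 16.2 times that average on the control arrays. A second scale, obtained by dividing each array by that factor, is called the hybridization scale below. Among the 29 member probe sets bright enough to test, the median absolute log2 difference between replicates was 0.17 in shMiwi and 0.17 in shCaf1, against 1.54 in control. Protamine, transition protein and other elongating spermatid markers, 15 in all, had a median percentile between 98.0 and 99.4 on the shRNA arrays, against 51.0 on control 1 and 98.8 on control 2. Their summed signal ran from 140712 to 231376 across the shRNA arrays, against 7402 on control 1 and 720926 on control 2. None was at 0, and 7 of the 15 were below the array median on control 1, with at most 1 on any other array. Spermatocyte markers had median percentiles of 96.2 to 97.8 on the shRNA arrays, against 22.3 and 64.9 on the control arrays (8 of 10 called higher in shMiwi and 8 in shCaf1), and round spermatid markers 95.4 to 97.0, against 24.9 and 86.4 (6 and 7 of 12 higher). Leydig markers were higher in 3 and 2 of 5 cases and endothelial markers lower in 2 and 3 of 5, in shMiwi and in shCaf1. Other lists were mixed: of 9 Sertoli markers 2 were higher and 3 lower in shMiwi, and 0 and 3 in shCaf1. Of 5 myoid markers it was 2 and 1, then 1 and 1, and of 15 elongating spermatid markers 1 and 1, then 2 and 1. Of all genes 18.6% and 17.2% were higher and 22.7% and 22.4% lower. On the shRNA arrays Leydig markers had median percentiles of 94.7 to 95.2 and Sertoli markers 71.5 to 74.0. The part of these cell types in the differences from control was not tested. The hairpin targets were read first, each by the probe set with the highest mean log2 signal over all 6 arrays, controls included. The Piwil1 (Miwi) probe set gave 9780 and 10392 in shMiwi, 21881 and 22442 in shCaf1, and 1445360 and 292542 in control. The Cnot7 probe set, Cnot7 being a deadenylase known as Caf1, gave 4365 and 5012 in shMiwi, 3633 and 4330 in shCaf1, and 2003570 and 188877 in control. On the deposited scale Piwil1 was called lower than control by -6.01 in shMiwi and -4.87 in shCaf1 (limma adjusted p = 0.00675 and 0.0111). Cnot7 was called lower by -7.03 and -7.27 (limma adjusted p = 0.00854 and 0.00886). Each target thus also fell in the group whose hairpin is named for the other gene. On the hybridization scale neither target passed against control. The log2 differences there were -0.62 in shMiwi and 0.12 in shCaf1 for Piwil1 (limma adjusted p = 0.759 and 0.954). For Cnot7 they were -1.65 and -2.28 (limma adjusted p = 0.276 and 0.147).

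**Figure D1:**
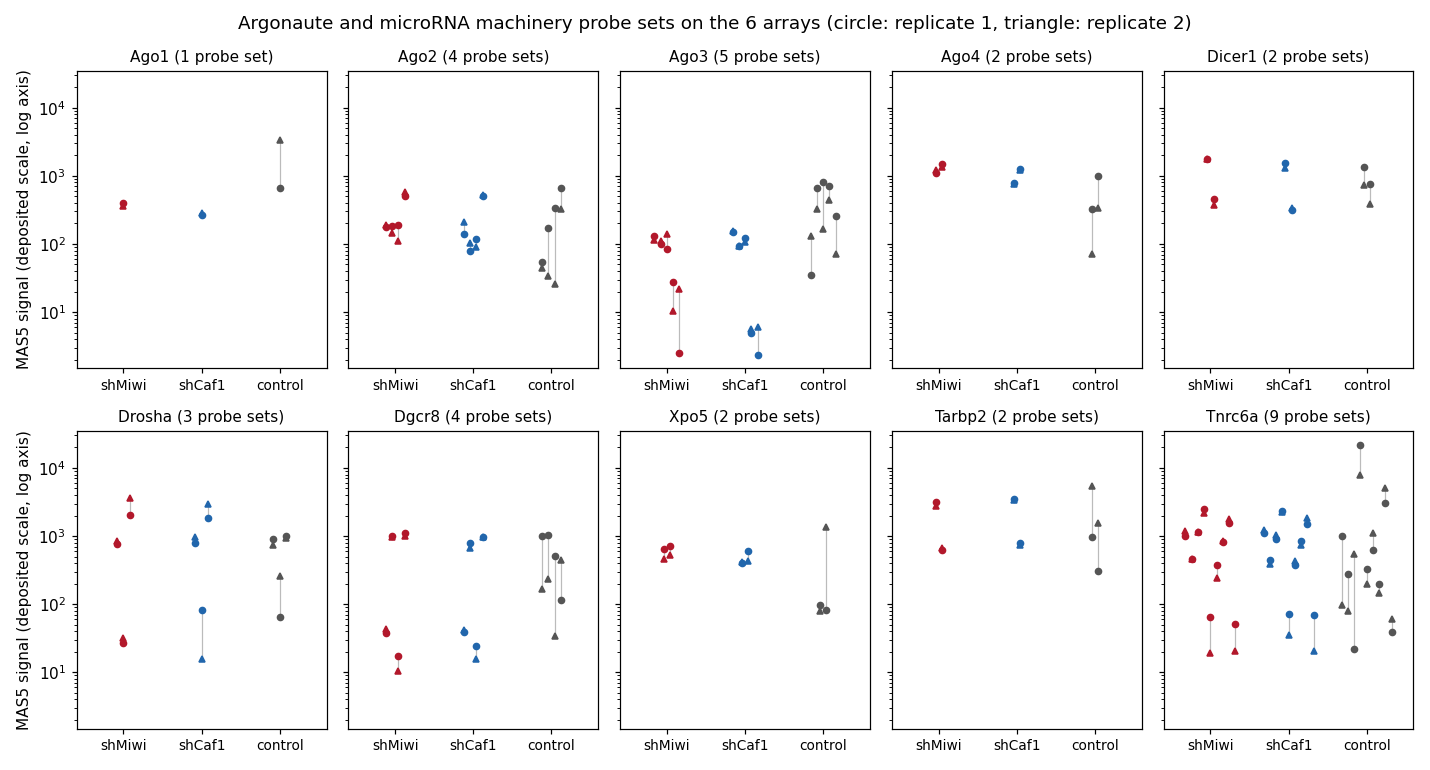
Deposited MAS5 signal (log axis) of all 34 probe sets of the 10 genes, 1 panel per gene, with shMiwi left, shCaf1 in the middle and control right; circles are replicate 1, triangles replicate 2, and a line joins the replicates of 1 probe set. The shMiwi and shCaf1 points lie close together, while the control replicates of most probe sets are spread out, as for Tnrc6a 1434899_s_at at 22.1 and 549.

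Between the shRNA groups, where the replicates lay close together, 1 of 28 tested member probe sets was called. Ago4 was higher in shMiwi than in shCaf1 by one of its probe sets, and none of the other 27 passed limma at an adjusted p under 0.05 (a fit on the 4 shRNA arrays with Benjamini-Hochberg adjustment over 27022 probe sets). Over all probe sets this comparison called 7.09%, with 3.7% higher and 3.39% lower. Over other settings that share ran from 0% in the fit on all 6 arrays to 27.4% on the hybridization scale. The member differences ran from -0.41 to 0.74 on the log2 scale, where 5% to 95% of all probe sets lay between -0.64 and 0.69, and 20 of the 28 were above 0, against 52.4% of all. The median difference was 0.12 for the members and 0.02 for all probe sets.

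The Ago4 probe set 1429779_at read 1110.2 and 1217 in shMiwi, 792 and 769 in shCaf1, and 331 and 71.0 in control. Both shMiwi arrays were thus above both shCaf1 arrays, and all 4 were above both control arrays. The means were 1163 ± 75.3 in shMiwi and 780.2 ± 16.1 in shCaf1 (SD, n = 2 each), a log2 difference of 0.57 (SE 0.14, 95% interval 0.255 to 0.88, limma adjusted p = 0.0439). In bulk RNA a change in the share of cells of a type and a change in the transcript per cell cannot be told apart. The other Ago4 probe set, 1453289_at, read 1487 and 1329.7 in shMiwi, 1270.3 and 1235 in shCaf1, and 987 and 338 in control. Its groups did not overlap either, but the difference was 0.16 (95% interval -0.13 to 0.46) with an adjusted p of 0.485 in limma. The call for 1429779_at was lost in 8 of 15 alternatives, with adjusted p-values from 0.00113 to 1.00 over all of them, and among these without shMiwi replicate 2 (0.0758), without shCaf1 replicate 1 (0.172) and without shCaf1 replicate 2 (0.248).

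Beside the Ago4 difference, markers of the sorted stage differed too. Of all genes read by their brightest probe set, 4.19% were higher and 4.7% lower in shMiwi than in shCaf1 by limma. At an unadjusted p under 0.05 it was 14.5% and 13.8%. Of 15 elongating spermatid markers, 11 were lower in shMiwi than in shCaf1 and 0 were higher by limma, with a median log2 difference of -0.70. Their summed signal was 153190 and 140712 in shMiwi, against 217002 and 231376 in shCaf1. Of 12 round spermatid markers 4 were lower and 0 higher (median -0.42). Of 10 spermatocyte markers 0 were called (median 0.20), with 4 higher and 0 lower at an unadjusted p under 0.05. Of the somatic markers, limma called 2 of 5 myoid, 2 of 8 Sertoli and 1 of 5 Leydig genes higher in shMiwi and 0 lower. At an unadjusted p under 0.05, Sertoli markers were 3 higher and 1 lower, Leydig 2 and 1, and myoid 2 and 0. The lowest myoid difference was -0.66. The summed myoid signal was 5195 and 4759 in shMiwi, against 3937 and 3973 in shCaf1. Limma called 0 of 6 spermatogonial, 0 of 5 endothelial and 0 of 6 macrophage markers. Of these 3 lists only macrophage markers moved at an unadjusted p under 0.05, 1 higher and 1 lower. None of the markers was at 0 on any array, and their part in the Ago4 difference was not tested.

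Ago4, Ago1 and Ago3 lie next to each other on mouse chromosome 4 among protein-coding genes and are read from the same strand. Their promoters are shown because neighbours in this cluster differed in their readings: both Ago4 probe sets were above both control arrays, while the Ago1 probe set and 4 of the 5 Ago3 probe sets were below both of them on the deposited scale. That contrast did not hold on the hybridization scale, where in shMiwi Ago1 was 2.59 above control and the 3 tested Ago3 probe sets were 2.21, 2.45 and 2.99 above it, as Ago4 was. The 250 bases before each annotated start are given 5′ to 3′ from RefSeq (GRCm38.p6, minus strand), at chr4:126533459-126533708 for Ago4, chr4:126468632-126468881 for Ago1 and chr4:126429543-126429792 for Ago3. Capitals mark GC boxes, the motif GGGCGG or its reverse complement CCGCCC.
Ago4: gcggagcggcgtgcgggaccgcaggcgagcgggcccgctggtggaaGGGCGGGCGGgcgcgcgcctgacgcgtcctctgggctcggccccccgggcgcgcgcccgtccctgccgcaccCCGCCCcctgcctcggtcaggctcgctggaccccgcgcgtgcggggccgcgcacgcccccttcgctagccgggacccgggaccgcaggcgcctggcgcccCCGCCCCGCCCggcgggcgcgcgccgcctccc
Ago1: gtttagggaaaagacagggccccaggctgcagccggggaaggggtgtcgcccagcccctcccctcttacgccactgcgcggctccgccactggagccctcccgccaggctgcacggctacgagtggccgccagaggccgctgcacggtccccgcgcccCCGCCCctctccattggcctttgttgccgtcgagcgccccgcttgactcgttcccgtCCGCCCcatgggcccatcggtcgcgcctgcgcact
Ago3: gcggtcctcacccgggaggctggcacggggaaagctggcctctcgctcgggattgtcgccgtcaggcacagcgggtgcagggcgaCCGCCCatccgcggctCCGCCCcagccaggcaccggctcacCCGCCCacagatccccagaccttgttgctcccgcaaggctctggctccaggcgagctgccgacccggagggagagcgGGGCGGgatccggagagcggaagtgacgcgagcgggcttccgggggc
The Ago4 window holds 5 GC boxes, counting overlapping ones, against 2 for Ago1 and 4 for Ago3, and 32.7% of 32851 mouse promoter windows of this length hold at least 1 on either strand. It also holds 46 CpG pairs, a number reached by 0.323% of those windows, where Ago1 has 26 (reached by 9.59%) and Ago3 has 27 (reached by 8.56%). CCAAT, searched on both strands like all these motifs, occurs 1 time in Ago1 and in neither of the other windows (33.8% of windows hold it), and TATAAA (12.4%) and TGACGTCA (1.55%) are in none of the 3. These matches describe the letters of the windows only.

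Ago2, the slicing Argonaute, had 4 tested probe sets, none of which passed between the shRNA groups. The widest gap was at 1435636_at, which read 181 and 146 in shMiwi, 78.9 and 104 in shCaf1, and 170.3 and 34.2 in control. Its shMiwi arrays were above its shCaf1 arrays by a log2 difference of 0.74 (SE 0.25, 95% interval 0.17 to 1.32), with a limma adjusted p of 0.110. The other 3 Ago2 probe sets differed by 0.07 to 0.44, and each had groups that overlapped. For 1455389_s_at, at 508 and 584 in shMiwi and 502 and 521 in shCaf1, the 95% interval of the difference ran from -0.27 to 0.45.

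Ago1, which has a single probe set, read 394 and 355 in shMiwi, 268 and 286 in shCaf1, and 668 and 3402 in control. The shMiwi arrays were above the shCaf1 arrays by 0.41 (95% interval 0.02 to 0.81, limma adjusted p = 0.185), and the control arrays were highest. Among the 3 tested Ago3 probe sets the differences between the shRNA groups were -0.26, 0.14 and -0.05, with adjusted p-values from 0.529 to 0.937. The remaining Ago3 probe sets, 1442009_at and 1458476_at, were too dim to be tested, with signals between 2.37 and 27.7 on the shRNA arrays.

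The processing genes lay close together in the shRNA groups. The brighter Dicer1 probe set, 1427941_at, read 1759 and 1743 in shMiwi, against 1552 and 1305 in shCaf1, a difference of 0.30 (95% interval -0.01 to 0.60, adjusted p = 0.219), and the other, 1460571_at, differed by 0.34 (-0.07 to 0.75, adjusted p = 0.292). Dgcr8 1435439_at read 1010.04 and 962 in shMiwi, against 802 and 679 in shCaf1, which gave 0.41 (0.07 to 0.75, adjusted p = 0.128). The other tested Dgcr8 probe set, 1455311_at, differed by 0.10 (limma adjusted p = 0.705). In the tested probe sets of both genes the shMiwi arrays were above the shCaf1 arrays without passing the adjusted threshold. The untested Dgcr8 1422981_at and 1446169_at differed by 0.004 and -0.275, with overlapping groups.

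Tarbp2, the Dicer partner, was the one gene with several probe sets that all lay below 0 in this comparison. Its 1423616_at read 3209 and 2758 in shMiwi, against 3463 and 3329 in shCaf1, a difference of -0.19 (95% interval -0.47 to 0.09), and 1438952_x_at differed by -0.23 (-0.56 to 0.10), with adjusted p-values of 0.379 and 0.381 in limma. Drosha had a tested probe set on each side of 0, at -0.10 and 0.23. Its 1438505_s_at read 2022 and 3657 in shMiwi, against 1846 and 2909 in shCaf1, so that replicate 2 was the higher in both groups and the groups overlapped.

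Xpo5, the exporter, read 642 and 467 in shMiwi, 403 and 415 in shCaf1, and 98.9 and 80.1 in control at 1428560_at. The shMiwi arrays were above the shCaf1 arrays by 0.41 (95% interval -0.02 to 0.83), which did not pass (limma adjusted p = 0.224), and the second probe set differed by 0.26 with overlapping groups. The 8 tested probe sets of Tnrc6a, the Argonaute partner, differed by -0.41 to 0.22, and 5 of them were above 0. The lowest was 1439246_x_at, at 371 and 246 in shMiwi and 379 and 437 in shCaf1 (adjusted p = 0.292).

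At an unadjusted p under 0.05, 4 of the 28 member probe sets were higher in shMiwi than in shCaf1 (Ago1, Ago2 1435636_at, Ago4 1429779_at and Dgcr8 1435439_at) and 0 were lower, where 24.6% of all probe sets reached that p in either direction. None of the 28 was at least 2-fold apart without overlap (2.37% of all probe sets were). The groups did not overlap for 16 of the 28, 12 of them higher and 4 lower in shMiwi, against 54.5% of all probe sets (29.5% higher and 25% lower). On the hybridization scale 12 of the 28 were called higher and 0 lower, against 26.5% and 0.966% of all. The median over all probe sets became 0.39 there and that of the members 0.49, so most of the change was common to the array.

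**Figure D2:**
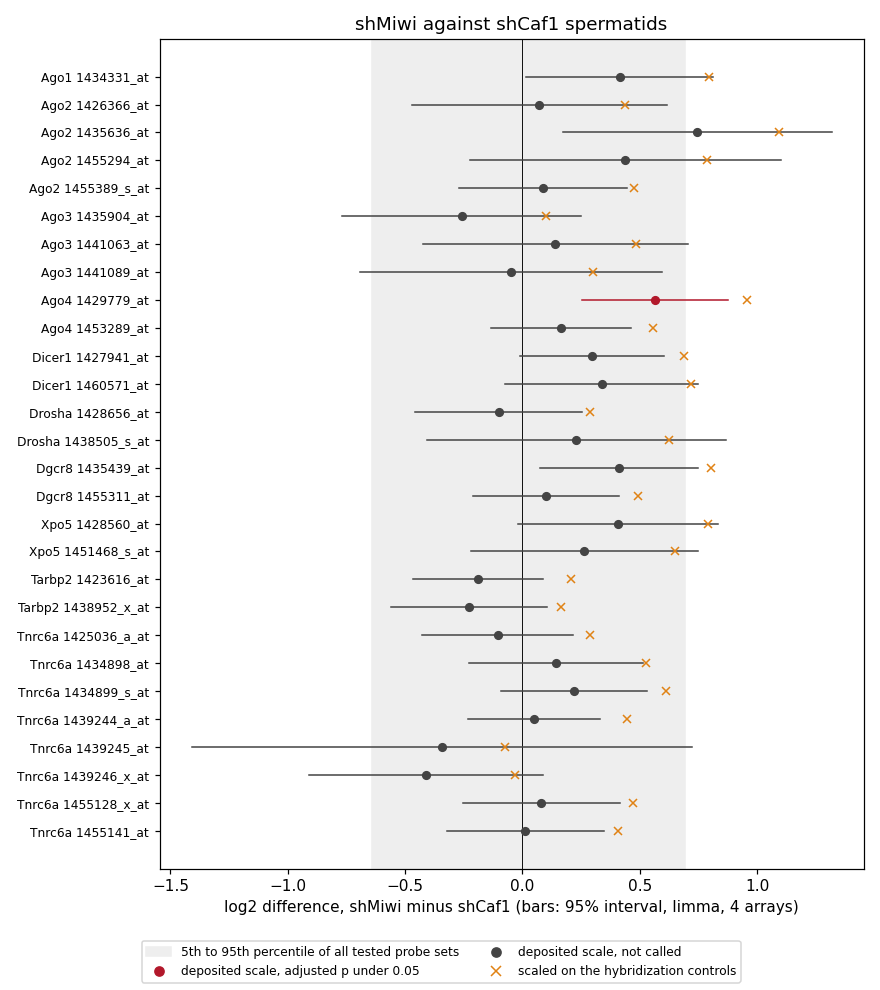
Log2 difference of shMiwi minus shCaf1 for the 28 tested member probe sets (points, with 95% intervals from limma on 4 arrays), the red point marking the called one, crosses the same difference on the hybridization scale, and the grey band the range that holds 5% to 95% of all tested probe sets. Ago4 1429779_at at 0.57 is the called probe set, and all but 1 of the points, Ago2 1435636_at at 0.74, fall inside the grey band.

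Against control, the members were called in both directions on the deposited scale, and Tnrc6a was called both ways. With median centring 17 were called higher in shMiwi and 14 in shCaf1, and 0 lower in either. Of all probe sets 46.9% and 44% were called in either direction with that setting, and their median difference moved to 1.38 and 1.32. With quantile normalization 35.3% and 33.6% of all probe sets were called in either direction, and 2 members were still lower in each comparison. The split into directions thus depends on the scaling. Tnrc6a 1439244_a_at was among the lower members (-2.31 in shMiwi, limma adjusted p = 0.0312). In shMiwi, limma on 6 arrays called 8 of 29 tested member probe sets, against 43.2% of all probe sets, with 4 higher (16.9% of all were) and 4 lower (26.4% of all were). In shCaf1 it called 6 of 29, against 41.5% of all, with 3 higher (15.5% of all) and 3 lower (26% of all). By size alone, 18 of the 29 in shMiwi and 17 of the 29 in shCaf1 were at least 2-fold from control with no overlap, against 62.3% and 61.2% of all probe sets. The median member difference was 0.69 in shMiwi and 0.50 in shCaf1, where the median of all probe sets was -0.20 and -0.25. Both comparisons use the same 2 control arrays, so that their values are given side by side and not as support for each other. The 3 groups share 1 estimate of spread in this fit although the controls varied more, and leaving out either array of the shRNA group compared left 0 member calls and 0 calls among all probe sets.

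Called as higher among the Argonautes was Ago2 1426366_at, which read 175.2 and 188 in shMiwi, 140.5 and 209 in shCaf1, and 54.9 and 44.3 in control. All 4 shRNA arrays lay above both control arrays. The log2 difference from control was 1.59 in shMiwi (SE 0.40, limma adjusted p = 0.0266) and 1.52 in shCaf1 (SE 0.40, adjusted p = 0.0319), and on the hybridization scale it was 3.67 and 3.23. The remaining Ago2 probe sets overlapped between either shRNA group and control, with differences between 0.22 and 0.89 in shMiwi and between -0.04 and 0.14 in shCaf1. For 1455294_at control 1 stood at 342, above every shRNA array, and control 2 at 26.1, below every one.

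Ago4 1429779_at, with the values given above, was higher than control by 2.76 in shMiwi (SE 0.69, limma adjusted p = 0.0269) and by 2.20 in shCaf1, where it did not pass (adjusted p = 0.0539). Against control 1 alone the shMiwi difference was 1.77 and against control 2 alone 3.76. The second Ago4 probe set differed by 1.26 in shMiwi and 1.09 in shCaf1 without passing (adjusted p = 0.131 and 0.180).

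Ago3 was lower by the probe set 1441063_at, which read 99.1 and 110 in shMiwi, 94.6 and 91.8 in shCaf1, and 662 and 322 in control. It fell on the log2 scale, with differences of -1.99 in shMiwi (limma adjusted p = 0.0204) and -2.13 in shCaf1 (adjusted p = 0.0178), and turned to 2.21 and 1.73 on the hybridization scale. The untested 1442009_at read 27.7 and 10.5 in shMiwi, 4.91 and 5.69 in shCaf1, and 700 and 437 in control, with both control arrays above every shRNA array. Of the 5 Ago3 probe sets 1435904_at alone was not below both controls, at 131 and 116 in shMiwi, 148 and 154 in shCaf1, and 34.7 and 131 in control. Ago1 differed from control by -1.97 in shMiwi and -2.38 in shCaf1 on the log2 scale, which did not pass (adjusted p = 0.0971 and 0.0607). On the hybridization scale its sign turned, to 2.59 in shMiwi, which passed as higher (adjusted p = 0.0224), and 1.80 in shCaf1, which did not (adjusted p = 0.0843).

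Among the processing genes, Dgcr8 carried the one called probe set. Its 1422981_at read 38.2 and 43.3 in shMiwi, 39.2 and 41.9 in shCaf1, and 1013 and 166 in control, and it fell on the log2 scale, with differences of -2.93 in shMiwi (limma adjusted p = 0.0427) and -2.94 in shCaf1 (adjusted p = 0.0439), turning to 1.20 and 0.91 on the hybridization scale. This probe set was too dim for the fit on the shRNA arrays and passed the filter on 6 arrays through its control signals alone, so that a difference was fixed by the filter and the call adds nothing to the values. In contrast 1455311_at read 1109 and 987 in shMiwi, 978 and 972 in shCaf1, and 114 and 452 in control, with differences of 2.10 and 2.003 that missed the threshold (adjusted p = 0.0501 and 0.0593). Control 1 was the higher control for 1422981_at and the lower one for 1455311_at. The untested Dgcr8 1446169_at read 17.1 and 10.5 in shMiwi, 24.4 and 15.8 in shCaf1, and 513 and 34.1 in control.

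No Dicer1, Drosha or Tarbp2 probe set passed against control. Dicer1 1427941_at stood at 1367 and 731 in control, a difference of 0.80 for shMiwi and 0.50 for shCaf1 (limma adjusted p = 0.194 and 0.391), and 1460571_at differed by -0.37 and -0.70. Drosha 1438505_s_at read 1000.2 and 924 in control, below all 4 shRNA arrays, and its differences of 1.49 in shMiwi and 1.26 in shCaf1 missed the threshold (adjusted p = 0.0536 and 0.0865). For Drosha 1428656_at, at 760.1 and 854 in shMiwi, 784 and 955 in shCaf1, and 893 and 732 in control, the groups overlapped and the 95% interval for shMiwi ran from -0.88 to 0.87. The untested Drosha 1438440_at, at 27.1 and 32.1 in shMiwi, 81.4 and 15.5 in shCaf1, and 64.3 and 261 in control, was dim on most arrays. Tarbp2 1423616_at had 966 on control 1 and 5495 on control 2, so that every shRNA array lay between the controls.

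Xpo5 1428560_at gave the smallest adjusted p among the members in shMiwi. With control arrays close together at 98.9 and 80.1, it rose by 2.42 on the log2 scale in shMiwi (SE 0.35, limma adjusted p = 0.00687) and by 2.02 in shCaf1 (SE 0.35, adjusted p = 0.0108). The other Xpo5 probe set, 1451468_s_at, read 706 and 536 in shMiwi, 612 and 424 in shCaf1, and 83.2 and 1376 in control. Control 1 was below and control 2 above every shRNA array there, and the differences of 0.77 and 0.50 did not pass (adjusted p = 0.642 and 0.765).

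Tnrc6a was the gene called in both directions. Its 1455128_x_at read 827 and 840.5 in shMiwi, 851 and 728 in shCaf1, and 199.7 and 146 in control, and it rose by 2.19 in shMiwi and by 2.11 in shCaf1 (SE 0.34 each, limma adjusted p = 0.00804 and 0.00945). By contrast 1439244_a_at read 2523 and 2198 in shMiwi, 2315 and 2237 in shCaf1, and 22052 and 7876 in control, a fall with log2 differences of -2.48 in shMiwi and -2.53 in shCaf1 (adjusted p = 0.0228 and 0.0226). In Affymetrix naming the ending x marks a probe set with probes that can also bind other transcripts.

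Another Tnrc6a probe set, 1439245_at, read 64.5 and 19.3 in shMiwi, 72.8 and 35.6 in shCaf1, and 327 and 196 in control. It fell by 2.34 on the log2 scale in shMiwi (limma adjusted p = 0.0326), while its difference of -1.996 in shCaf1 did not pass (adjusted p = 0.0531). The sign of 1439244_a_at turned to 2.85 in shMiwi and 2.40 in shCaf1 on the hybridization scale, and that of 1439245_at to 1.30 and 1.37. The largest upward difference of the gene, 2.98 in shMiwi at 1434899_s_at, rested on control signals of 22.1 and 549 and did not pass (adjusted p = 0.109). Of the remaining probe sets, 1425036_a_at and 1434898_at lay above both control arrays, with shMiwi differences of 1.69 and 1.51 (adjusted p = 0.238 and 0.0934), and 1455141_at lay below both, at 1548 and 1804 in shMiwi, 1501 and 1830.1 in shCaf1, and 3092 and 5012 in control (adjusted p = 0.0642 in shMiwi). The untested 1457295_at read between 20.4 and 70.1 on every array.

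Of the 9 genes with several probe sets, 6 had tested probe sets on both sides of 0 in shMiwi against control, 5 in shCaf1 against control and 3 in shMiwi against shCaf1. When each gene was represented by its brightest probe set only, 1 of the 10 genes was called in each comparison with control, the falling Tnrc6a 1439244_a_at, where 41.3% of all genes were called by that rule in shMiwi and 39.6% in shCaf1. That call was lost with median centring, at -0.90 in shMiwi and -0.96 in shCaf1 (limma adjusted p = 0.184 and 0.162). With any called probe set it was 6 and 5 of the 10 genes, against 53.5% and 51.6% of all. On the hybridization scale all 28 members tested there were called higher in shMiwi and 27 of 28 in shCaf1, against 94% and 91.5% of all probe sets, and 0 were called lower (0.0888% and 0.0333% of all). The median of all probe sets moved to 3.58 and 3.15 on that scale and that of the members to 4.29 and 3.91, so that the rise was array-wide. The 4 higher member calls in shMiwi and the 3 in shCaf1 kept their direction on that scale, and the falls of Ago3, Dgcr8 and Tnrc6a turned. Only the control arrays are divided by large factors, 82.3 and 16.2, so a rise against control stays a rise there. Keeping direction thus does not set the rises apart from the falls. Scaled control signals can also lie below the added 16, as for Ago2 1426366_at at 0.67 and 2.73.

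**Figure D3:**
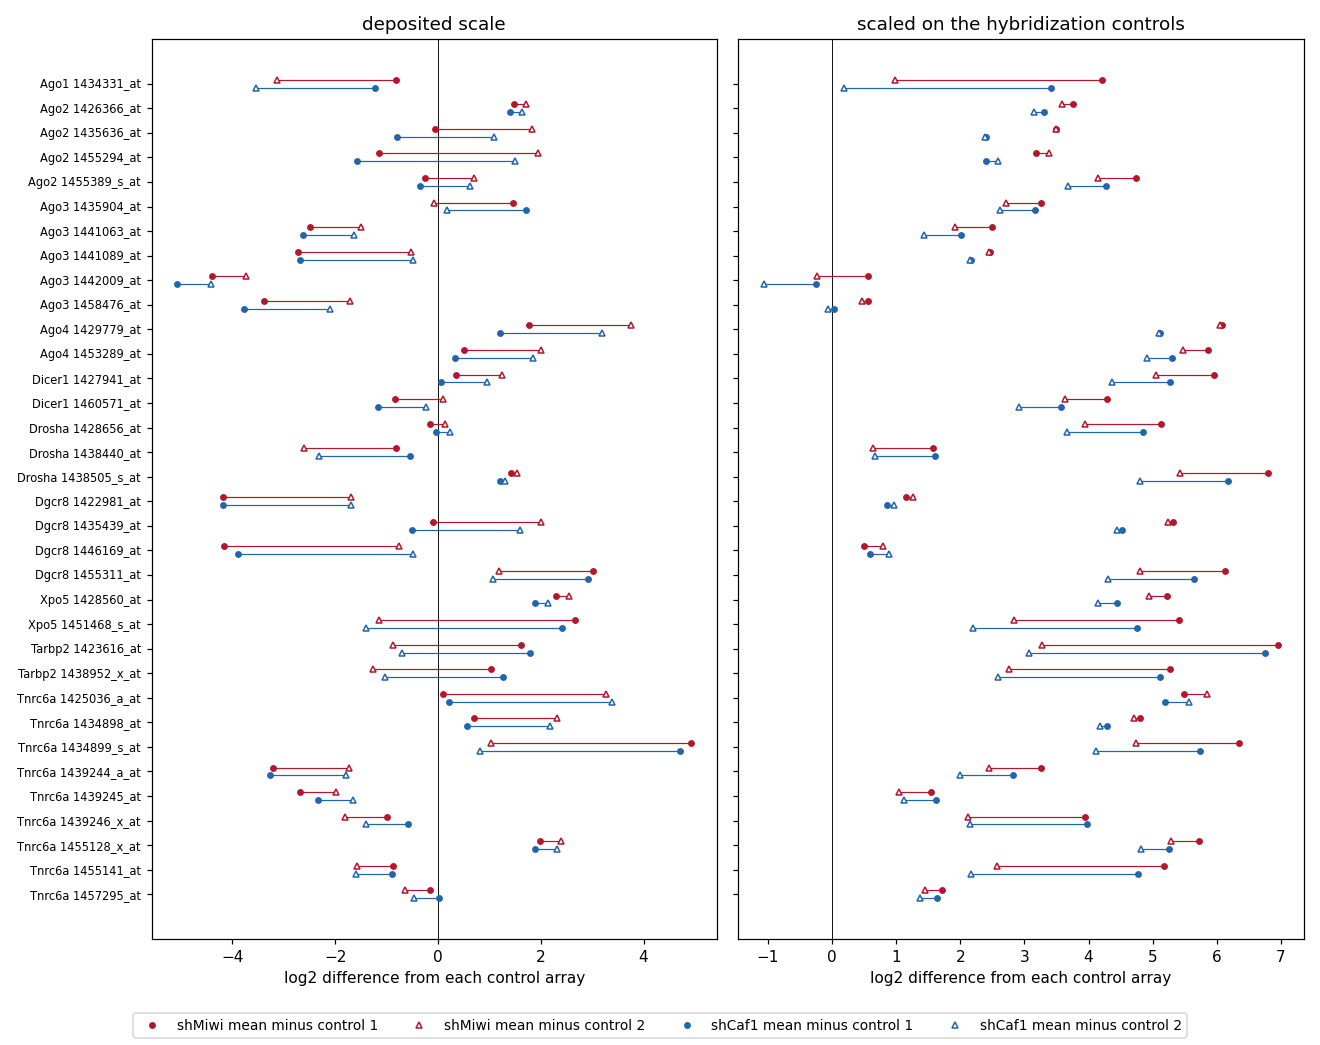
Log2 difference of the shMiwi mean (red) and the shCaf1 mean (blue) from control 1 (filled circles) and from control 2 (open triangles) for all 34 member probe sets, on the deposited scale (left) and the hybridization scale (right). On the left many lines cross 0, as for Xpo5 1451468_s_at, whereas on the right nearly all lie above 0, Ago3 1442009_at and 1458476_at being the exceptions.

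The wider small RNA pathway, a list of 43 genes that process, load, bind or act with small RNAs, of which 38 were tested by their brightest probe set, had members called in both directions. In shMiwi against control 11 rose and 7 fell by limma (median difference 0.67), where, of 14298 genes read by their brightest probe set, 18.6% were higher and 22.7% lower (median 0.09). In shCaf1 against control 10 rose and 7 fell (median 0.75), against 17.2% higher and 22.4% lower of all genes (median 0.07). Between the shRNA groups 0 of 38 were called, against 4.19% of genes higher and 4.7% lower. At an unadjusted p under 0.05, 7 were higher and 6 lower, where 14.5% and 13.8% of all genes were, and the differences ran from -0.62 to 0.66 with a median of 0.06.

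The chaperone Hsp90aa1, which helps load Argonaute, read 24022 and 21498 in shMiwi, 26096 and 28780 in shCaf1, and 924 and 1418 in control, a rise of 4.29 in shMiwi and 4.56 in shCaf1 (limma adjusted p = 0.00451 and 0.00518). Ddx6, a helicase of the silencing complex and of P-bodies, rose by 4.16 and 3.81, the SMN-complex helicase Ddx20 by 4.01 and 4.25, and Pan3, of the PAN2-PAN3 deadenylase, by 3.35 and 3.46, each in shMiwi and in shCaf1 in that order. All 4 had both control arrays below every shRNA array.

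The falls were led by Fmr1, the fragile X RNA-binding protein, which read 1100.3 and 1285 in shMiwi, 1030.3 and 1007 in shCaf1, and 30306 and 35650 in control. It fell, with log2 differences of -4.77 in shMiwi and -4.99 in shCaf1 (limma adjusted p = 0.00374 and 0.00470), and on the hybridization scale it stood at 0.58 and -0.03. Ddx5, a helicase of the Drosha complex, differed by -4.33 and -4.17, Tnrc6b, a paralogue of Tnrc6a, by -2.61 and -2.16, and Lin28a, which blocks let-7 processing, by -2.54 and -2.72. On the hybridization scale each of these 3 turned above 0 in both groups.

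Among the PIWI relatives of the Argonautes, Piwil1 was lower in shMiwi than in shCaf1 by a log2 difference of -1.14 (limma adjusted p = 0.00132), with the signals given above. Piwil2, a spermatocyte PIWI protein, read 7579 and 7883 in shMiwi, 6278 and 6815 in shCaf1, and 449 and 979 in control. Its shMiwi arrays were above its shCaf1 arrays by 0.24, which did not pass (adjusted p = 0.196), while it rose against control by 3.51 in shMiwi and by 3.27 in shCaf1 (adjusted p = 0.00656 and 0.00820). Piwil4, at 27.7 and 16.9 in shMiwi, 13.6 and 4.75 in shCaf1, and 556 and 146 in control, was too dim to be tested. Cnot7 differed by 0.24 between the shRNA groups and did not pass (adjusted p = 0.304). On the hybridization scale, where the median of all probe sets was 0.39, Piwil2 at 0.64 and Cnot7 at 0.63 passed as higher in shMiwi (limma adjusted p = 0.00764 and 0.0128). Piwil1 stayed lower there, at -0.74 (limma adjusted p = 0.00101).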

How the data were processed

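RNA of sorted mouse elongating spermatids was amplified with a 3′ kit and hybridised to Affymetrix arrays (labels' protocols). The deposited values are linear signal intensities; the submitters' processing notes name MAS5, with no version, and every array of the authors' table has a 2% trimmed mean of 500. The genome build is not given in the sources used here, and detection calls were not used. Intensities were taken to log2 after adding 16, which understates changes of dim probe sets. Without the 64 Affymetrix controls, a filter at the 40th percentile of mean log2 intensity kept 27022 probe sets. That filter left 29 of 34 member probe sets in the fit on 6 arrays and 28 in the fit on the 4 shRNA arrays. The tests were limma 3.58.1 (R 4.3.3; lmFit, eBayes with trend) on 3 and 2 residual degrees of freedom. P-values were adjusted by Benjamini-Hochberg over the 27022, and a call means an adjusted p under 0.05. The fit was tested on simulated data whose spread was taken from the shRNA replicates only. That test therefore does not bear on the comparisons with control. Probe sets bright only in control, such as Dgcr8 1422981_at, could pass the filter and had to differ, so counts over tested members support nothing by themselves. The second scale divides each array by the geometric mean of 18 hybridization control probe sets relative to the shRNA arrays. Members and lists were chosen with earlier results of these data known. The brightest probe set of a gene was the one with the highest mean log2 signal over all 6 arrays. Control signals thus helped to choose it, so that a fall against control in a gene read this way is partly built in. All probe sets of the 10 genes were taken; of the pathway list, the 4 largest rises and 4 largest falls against control were named, with those called between the shRNA groups (none), and Piwil1, Piwil2, Piwil4 and Cnot7. Other constants, filters, scalings, calls and left-out arrays were tried.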

Additional observations from a re-analysis of the deposited data

How the results depend on the processing

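With 2 arrays a group, counts of member calls moved with most settings, and the cause was not tested beyond what the setting itself changes. In shMiwi against control the 8 calls became 4 with a filter at the 60th percentile (21 members tested), 17 with median centring, 28 with hybridization control scaling, 14 at an adjusted p under 0.1, 3 in the fit on the 4 arrays compared and 18 by 2-fold change without overlap; leaving out 1 array gave 0 to 24, with 24 without control replicate 1, 23 without control replicate 2, 2 without either shCaf1 array and 0 without either shMiwi array (7 and 5 at an unadjusted p under 0.05). In shCaf1 against control the 6 calls became 3, 14, 27, 12, 2 and 17 in the same order; leaving out 1 array gave 0 to 24, with 24 and 23 without control replicate 1 and 2, 2 without either shMiwi array and 0 without either shCaf1 array (5 and 4 unadjusted). The split of member calls into higher and lower was 6 and 2 for shMiwi and 5 and 2 for shCaf1 with quantile normalization. With median centring it was 17 and 0, and 14 and 0. In either direction, 35.3% and 33.6% of all probe sets were called with quantile normalization, and 46.9% and 44% with median centring. In shMiwi against shCaf1 the 1 call became 0 without a filter (5 unadjusted), with quantile normalization (4), with median centring (5), without the trend in eBayes (3), in the fit on all 6 arrays (0) and by 2-fold change without overlap, 12 with hybridization control scaling and 3 with the replicate number as a block; leaving out 1 array gave 0 to 3, the 3 without shMiwi replicate 1, when Drosha 1438505_s_at was also called higher and Tnrc6a 1439246_x_at lower. Hybridization control scaling turned Ago3 1441063_at to 2.21 in shMiwi and 1.73 in shCaf1, Dgcr8 1422981_at to 1.20 and 0.91, Tnrc6a 1439244_a_at to 2.85 and 2.40, Ddx5 to 1.06 and 0.82, Tnrc6b to 2.52 and 2.59, Lin28a to 1.88 and 1.36, and, in shMiwi, Fmr1 to 0.58. Over all probe sets the 11687 calls in shMiwi against control became 18076 without a filter, 6793 at the 60th percentile, 25421 with hybridization control scaling and 7930 in the 4 arrays, the 11205 in shCaf1 became 17244, 6448, 24729 and 7291, and the 1916 between the shRNA groups became 568 without a filter, 1269 with median centring, 7416 with hybridization control scaling, 16 without the trend, 5392 with the block and 0 in 6 arrays. Leaving out shMiwi replicate 1, shMiwi replicate 2, shCaf1 replicate 1 or shCaf1 replicate 2 gave 3363, 1902, 695 and 263 calls between the shRNA groups; without control replicate 1 or 2 there were 21469 and 22622 in shMiwi and 21114 and 22626 in shCaf1 against control, and 6471 to 7203 without an array of the other shRNA group. Replicate numbers are shared by the groups, but no label says that they pair samples: deviations of same-numbered arrays correlated at 0.181 (shMiwi with shCaf1), 0.00396 (shMiwi with control) and 0.0606 (shCaf1 with control) with only 2 numbers, and the replicate block gave 6 member calls in shMiwi and 5 in shCaf1 against control, the 3 between the shRNA groups being Ago4 1429779_at, Ago2 1435636_at and Dgcr8 1435439_at. MAS5 intensities carry no background level here, so readings of dim probe sets such as Ago3 1442009_at have no lower limit of detection.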
